A study of Mus musculus with 4 samples.

Results

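Retinoid genes make, carry and respond to retinoic acid, the active form of vitamin A. Of 9 listed genes (Adh1, Adh7, Aldh1a1, Aldh1a2, Aldh1a3, Crabp2, Dhrs3, Rarb and Stra6), 7 had a transcript cluster of their own among the 23332 clusters measured. A cluster is a group of the array's probes read as 1 value, and it can carry 1 gene symbol, several or none. A member was taken as the cluster whose only gene symbol in GEO's platform annotation is in the list, and each of the 7 had 1 such cluster. Dhrs3, which reduces retinal back to retinol, had no cluster under its symbol. Rarb, the gene of retinoic acid receptor beta, was named only on a cluster that carries 6 gene symbols, among them the ribosomal protein gene Rpl23a, so no value is given for it.

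The data are Mouse Exon 1.0 ST arrays of Affymetrix, hybridised with RNA of p63 knockout (2 samples) and wild-type (2 samples) epithelial stem cell cultures from bladder. Both groups came from newborn C57BL/6j mice. Cells of the digested bladders were grown on a feeder layer of 3T3 mouse fibroblasts, and the RNA is that of picked colonies. The comparison asks which transcripts differ in such colonies without p63, the transcription factor of basal epithelial cells encoded by Trp63. The sources used here give neither the disrupted part of Trp63, nor the number of animals or colonies behind a sample, nor the sex of the pups, so the p-values measure the spread between these samples, which may be technical.

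In background, retinol enters cells or circulates bound to carrier proteins, alcohol and short-chain dehydrogenases oxidise it to retinal, and the retinaldehyde dehydrogenases of the Aldh1a family turn retinal into retinoic acid in a step that is not reversed. Retinoic acid is carried by CRABP proteins, is broken down by CYP26 enzymes, and acts through nuclear receptors that pair an RAR with an RXR on direct repeats of a short DNA element. Vitamin A deficiency turns the lining of the bladder into a squamous, keratinised epithelium, and retinoic acid takes part in forming the urothelium in mouse embryos.

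The promoter sequences of 7 members, Rarb and Dhrs3 included, were at hand from RefSeq (GRCm38.p6). Shown here are the 250 bases upstream of the start sites of Adh1 and Aldh1a2, the 2 members with the largest decreases, and, as the known pattern of a retinoic acid response element, a stretch upstream of Rarb. All are written 5′ to 3′ on the strand of the gene, and capitals mark each match, on either strand, to the receptor element of 6 letters AGGTCA, in which the first letter may also be G and the third T.
Rarb, chr14:16575501-16575541, minus strand: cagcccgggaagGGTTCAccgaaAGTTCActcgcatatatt
Adh1, chr3:138277335-138277584, plus strand: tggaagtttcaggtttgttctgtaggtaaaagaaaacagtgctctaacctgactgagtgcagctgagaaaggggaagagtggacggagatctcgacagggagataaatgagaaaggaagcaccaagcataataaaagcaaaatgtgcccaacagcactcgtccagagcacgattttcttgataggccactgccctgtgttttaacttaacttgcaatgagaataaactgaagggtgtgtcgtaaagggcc
Aldh1a2, chr9:71215539-71215788, plus strand: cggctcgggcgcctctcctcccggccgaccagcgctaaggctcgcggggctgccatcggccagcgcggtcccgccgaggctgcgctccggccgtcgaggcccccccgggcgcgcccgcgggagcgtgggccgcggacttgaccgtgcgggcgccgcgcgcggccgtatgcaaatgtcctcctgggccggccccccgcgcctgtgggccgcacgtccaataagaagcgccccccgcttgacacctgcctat

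The Rarb stretch holds 2 of the elements in the same direction with 5 bases between them, ending 37 bases before the start site. Such a pair is present in 29 of 32851 promoter windows of this length (0.0883%). The windows of Adh1 and Aldh1a2 hold no element, while 38.6% of all windows hold at least 1. Of the other members' windows, that of Adh7 and 1 of the 2 listed for Aldh1a1 hold 1 element each, and those of Stra6 and Dhrs3 hold none. No window of these genes apart from that of Rarb holds a direct repeat with 5, 2 or 1 bases between elements. Their base composition differs, at 44.8% G and C upstream of Adh1 and 77.6% upstream of Aldh1a2, against a median of 52.4% over all windows. A missing match says only that these letters are not in this window.

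Trp63, read first as a check of the labels, was at 4.60 and 4.74 log2 units in the knockout colonies and at 8.98 and 8.99 in the wild-type colonies (limma adjusted p = 0.0153). Across all clusters the 2 knockout arrays correlated at 0.932 and the 2 wild-type arrays at 0.977. Detection flags are not among the values, so 5.08 log2 units served as a guide level: of 719 clusters for olfactory receptors, which stand in for silent genes, 95% of values lie below it. Epithelial markers were present in both groups, at a lower summed linear intensity over 9 markers in knockout arrays (3243 to 3687) than in wild-type arrays (7853 to 7999). In 7 of the 9 the knockout values all lay below the wild-type ones, as they did in 20.9% of all clusters. The simple epithelial keratin Krt18 was at 10.73 and 10.63 in the knockout colonies against 11.30 and 11.32 in the wild-type colonies, while Epcam, the 1 marker higher without overlap in the knockout, was at 8.92 and 8.77 against 8.55 and 8.56. The basal keratin Krt5 was at 5.02 and 4.77 in the knockout colonies against 10.43 and 10.60 in the wild-type colonies (limma adjusted p = 0.0153). Krt14, another basal keratin, was at 5.84 and 5.46 against 9.45 and 9.83 (limma adjusted p = 0.0324). These 2 alone passed in the list, and both enter its sum, while the groups overlapped for Elf3. Fibroblast markers other than Lum and Postn lay above the guide level on all arrays too. Sparc was at 10.95 and 11.73 in the knockout colonies against 11.14 and 10.73 in the wild-type colonies.

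**Figure D1:**
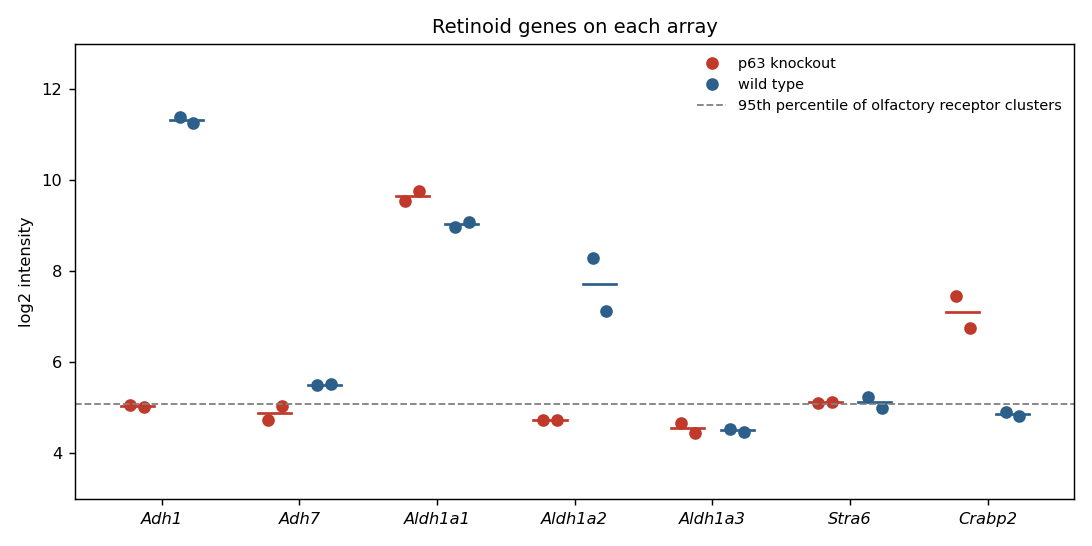
Log2 intensity (vertical axis) of the 7 measured retinoid genes on each array, with knockout arrays in red at the left of each pair and wild-type arrays in blue at the right; short bars are group means (n = 2 each) and the dashed line is 5.08, the 95th percentile of olfactory receptor clusters. Adh1 and Aldh1a2 lie near or below the line on knockout arrays and well above it on wild-type arrays, Crabp2 the other way round, and Aldh1a1 lies above 8.9 on all 4 arrays.

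Of the 7 measured members, Adh1 fell, none rose and 6 missed the threshold (limma, p under 0.05 after Benjamini-Hochberg adjustment over the whole table). Over all 23332 clusters 0.527% passed, 0.386% as lower and 0.141% as higher. The members' log2 differences ran from -6.29 to 2.25, with a median of 0.0028, beside a median of 0.12 over all clusters. In 5 of the 7 the groups did not overlap, 3 lower and 2 higher in the knockout, and 57.1% of all clusters have groups that do not overlap (20.9% lower and 36.2% higher), so the count is no result about these genes. A log2 difference of at least 1 in size was seen in 3 members, Adh1, Aldh1a2 and Crabp2, and in 11.5% of all clusters. The genes were chosen with earlier results of these data known, so neither count is a test of the pathway.

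The first step, from retinol to retinal, is where the called difference lay. Adh1, a class I alcohol dehydrogenase that oxidises ethanol and retinol, was at 5.06 and 5.01 log2 units in the knockout colonies and at 11.40 and 11.27 in the wild-type colonies. Both knockout arrays were low and both wild-type arrays high, and the gap between groups was far wider than the gap between arrays of a group. The difference was -6.29 ± 0.17 (SE; 95% interval -6.74 to -5.84), a 78.5-fold decrease (limma adjusted p = 0.0153). It ranked 4 among the decreases of all clusters. In the wild type Adh1 stood at percentiles 99.6 and 99.5 of all clusters on its array, and in the knockout at percentiles 48.5 and 47.5. The knockout mean of 5.04 was just under the guide level of 5.08, so the fold is open to understatement. The call did not hold when 1 array was left out (adjusted p between 0.0753 and 0.337, differences between -6.36 and -6.23), settings in which 0 of all clusters passed.

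Adh7, the class IV alcohol dehydrogenase of stratified epithelia and stomach, which is efficient with retinol, was at 4.74 and 5.05 in the knockout colonies and at 5.51 and 5.52 in the wild-type colonies. The knockout arrays were the lower ones and the groups did not overlap, but all values lay close to the guide level. Its log2 difference was -0.62 (95% interval -1.14 to -0.10) and did not pass (adjusted p = 0.185).

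Adh1 lies in a row of alcohol dehydrogenase genes on chromosome 3, in the order Adh7, Adh1, Adh6a, Adh6b, Adh4 and Adh5 in RefSeq. The neighbours were looked at with the values of Adh1 known. Adh4, another dehydrogenase active on retinol, was at 4.31 and 4.25 in the knockout colonies and at 3.44 and 3.38 in the wild-type colonies, higher on both knockout arrays yet under the guide level on all 4 (log2 difference 0.87, adjusted p = 0.106). Adh5, a glutathione-dependent formaldehyde dehydrogenase made in most tissues, was at 8.68 and 8.37 in the knockout colonies and at 8.80 and 8.49 in the wild-type colonies, and its groups overlapped (difference -0.12, 95% interval -0.71 to 0.48, adjusted p = 0.78). Of the 4 measured genes of the row, Adh1 alone passed the test; whether its difference exceeds those of its neighbours was not tested. Adh6a and Adh6b had no cluster under their symbols.

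None of the 3 retinaldehyde dehydrogenases, each able to make retinoic acid, passed the test. Aldh1a1, the form found in many adult epithelia, was at 9.55 and 9.77 in the knockout colonies and at 8.98 and 9.09 in the wild-type colonies. It stood at percentiles 97.3 and 97.7 on the knockout arrays and at percentiles 95.6 and 95.9 on the wild-type arrays, so it was abundant in both groups. Both knockout values were above both wild-type values, by 0.63 on the log2 scale (95% interval 0.14 to 1.11), a 1.54-fold difference that did not pass (adjusted p = 0.172).

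Aldh1a7, a close relative of Aldh1a1 and its neighbour in RefSeq's order on chromosome 19, was at 7.78 and 8.33 in the knockout colonies and at 8.33 and 8.53 in the wild-type colonies, and its groups overlapped (difference -0.38, adjusted p = 0.442). It was looked up after the values of Aldh1a1 were seen. Probes may not fully separate transcripts of such similar genes, and this was not tested, since probe-level values were not used here.

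Aldh1a2, the main retinoic acid making enzyme of the mouse embryo, expressed by mesenchyme and mesothelium, was at 4.73 and 4.73 in the knockout colonies and at 8.30 and 7.13 in the wild-type colonies. Both knockout arrays were below the guide level, and the wild-type arrays differed from each other by 1.16. The difference was -2.99 ± 0.43 (SE; 95% interval -4.16 to -1.81), 7.92-fold, and did not pass (adjusted p = 0.0816). With the knockout mean of 4.73 under the guide level, the fold is open to understatement. The difference ranked 71 among the decreases of all clusters. With clusters of below-median mean level left out it passed (adjusted p = 0.0348), in a setting where 4.49% of the clusters tested passed. That filter uses the mean over all 4 arrays. On the knockout arrays Aldh1a2 stood at percentiles 40.4 and 41.0, so it stayed in through its wild-type values. The pass is thus no separate support for the difference.

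Markers of other cells were set beside Aldh1a2. For all 6 measured endothelial markers wild-type array 1 exceeded wild-type array 2, with a median gap of 0.69. How many of all clusters have that order was not counted. This count and the like ones below therefore have no array-wide share beside them. Emcn, a sialomucin of capillaries and veins, was at 4.22 and 3.74 in the knockout colonies against 7.04 and 5.88 in the wild-type colonies, the lowest difference of the 6. The groups overlapped for Tek, and Kdr went the other way in log2 units, at 3.52 and 3.55 in the knockout colonies against 3.41 and 3.22 in the wild-type colonies. Both genes lay below the guide level on all arrays. By percentile of its array Kdr was not higher in the knockout, at 15.0 and 15.0 against 18.9 and 15.9 in the wild type. Of the 6, 4 were lower and 1 higher without overlap in the knockout, beside 20.9% and 36.2% of all clusters. Summed as linear intensity, the 6 came to 118 to 134 in knockout arrays against 221 to 405 in wild-type arrays. Of the 14 fibroblast and feeder cell markers, 10 were higher on the first wild-type array than on the other, and their summed intensity was 5761 to 8057 in knockout arrays against 6844 to 7725 in wild-type arrays.

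The fibroblast list had a median difference of -0.0046, and the groups overlapped for 9 of its 14 markers. The share without overlap was 35.7%, against 57.1% of all clusters. Its lowest differences were those of the matrix proteoglycans Lum and Dcn, and Vim, an intermediate filament gene, went the other way (9.71 and 10.39 in the knockout colonies against 9.06 and 9.18 in the wild-type colonies). Lum was at 4.02 and 2.66 in the knockout colonies against 6.36 and 4.98 in the wild-type colonies, and Dcn at 8.92 and 9.02 against 10.89 and 9.95. All 7 smooth muscle markers, too, had their higher wild-type value on array 1, with a summed intensity of 446 to 485 in knockout arrays against 231 to 383 in wild-type arrays. Groups overlapped for 4 of the 7, and 3 were higher without overlap, beside 36.2% of all clusters. Acta2 was at 7.11 and 7.87 in the knockout colonies against 6.87 and 5.64 in the wild-type colonies, and Smtn at 6.09 and 5.87 against 6.13 and 5.92. For 7 of 8 leukocyte markers and 4 of 5 mesothelial markers, too, the higher wild-type value was that of array 1. The leukocyte markers summed to 469 to 689 in knockout arrays against 332 to 411 in wild-type arrays. Cd68, the brightest of them on each array, was at 8.58 and 8.12 in the knockout colonies against 7.68 and 7.26 in the wild-type colonies. Of the 8, 4 were higher and 2 lower without overlap in the knockout, beside 36.2% and 20.9% of all clusters, and 2 overlapped. The sum therefore does not give a shared direction of the list. The 5 mesothelial markers summed to 470 to 555 in knockout arrays against 345 to 381 in wild-type arrays. Msln was the brightest of them on knockout arrays. Of the 5, 2 (Msln and Wt1) were higher and 1 lower without overlap in the knockout, beside 36.2% and 20.9% of all clusters. The other 2 overlapped. Msln, a surface protein of mesothelium, was at 8.41 and 8.32 in the knockout colonies against 6.57 and 6.47 in the wild-type colonies (adjusted p = 0.0512). Upk3b, a uroplakin gene also made by mesothelium, went the other way, at 7.09 and 6.33 in the knockout colonies against 7.86 and 7.66 in the wild-type colonies (adjusted p = 0.182). In bladder colonies its signal, and the sum that includes it, cannot be assigned to mesothelium alone. An array has no true 0, so no marker is listed as absent, and the part of these cells in the Aldh1a2 difference was not tested. In such bulk samples fewer cells of a type and less RNA per cell cannot be told apart.

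**Figure D2:**
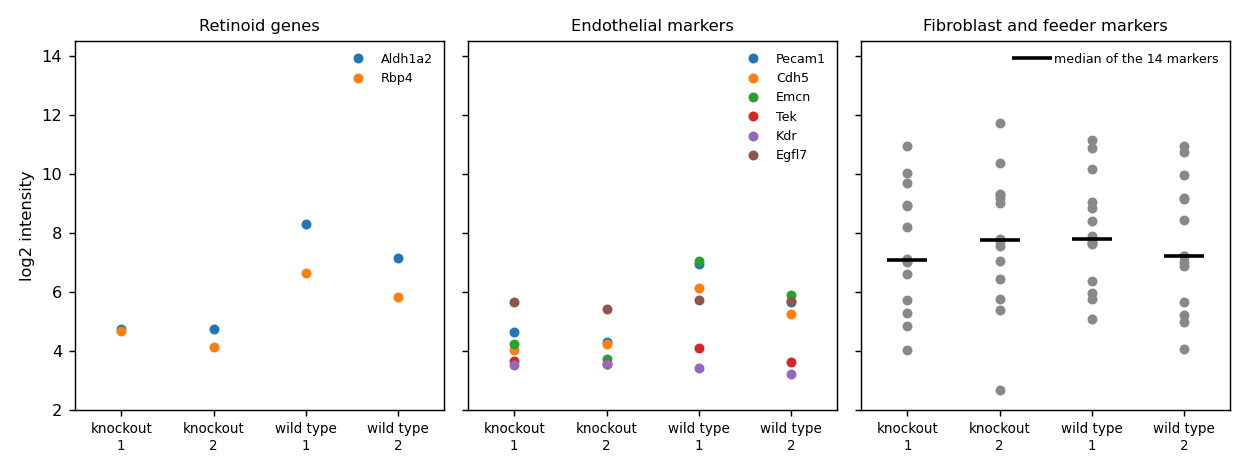
Log2 intensity (vertical axis) on the 2 knockout and 2 wild-type arrays of Aldh1a2 and Rbp4 (left), 6 endothelial markers (middle) and 14 fibroblast and feeder cell markers (right, black bars are their medians). Aldh1a2, Rbp4, Pecam1, Cdh5, Emcn and, by a small margin, Egfl7 are each highest on wild-type array 1 and next on wild-type array 2, Tek and Kdr do not have that order, and the fibroblast medians range from 7.08 to 7.79. Of all clusters, 20.9% are lower without overlap in the knockout, and the order of the wild-type arrays was not counted over them.

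Aldh1a3, the form known from the eye, the nose and epithelia of the urogenital tract, was at 4.68 and 4.45 in the knockout colonies and at 4.54 and 4.48 in the wild-type colonies. All 4 values lay below the guide level and the groups overlapped. The difference was 0.05 (95% interval -0.43 to 0.54, adjusted p = 0.884), and its sign turned after quantile and cyclic loess normalization.

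Uptake and binding genes came next. Stra6, the membrane receptor that takes up retinol from its plasma carrier and is itself induced by retinoic acid, was at 5.12 and 5.13 in the knockout colonies and at 5.24 and 4.999 in the wild-type colonies. The knockout values fell between the wild-type ones, at about the median of each array (percentiles 49.8 and 50.2 on knockout arrays, 53.3 and 48.1 on wild-type arrays). The difference was 0.0028 (95% interval -0.49 to 0.49, adjusted p = 0.994), with a sign that turned in 5 of 12 alternative settings.

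Crabp2, which delivers retinoic acid to its nuclear receptors and is a known target of them, was at 7.46 and 6.76 in the knockout colonies and at 4.90 and 4.82 in the wild-type colonies. Both knockout arrays were high, knockout array 1 the more so, and both wild-type arrays were below the guide level. The difference was 2.25 ± 0.29 (SE; 95% interval 1.46 to 3.04), 4.77-fold, ranked 120 among the increases of all clusters, and did not pass (adjusted p = 0.0733). With the wild-type mean of 4.86 under the guide level, the fold is open to understatement. The gene passed without clusters below the 25th percentile or the median of mean level, settings in which 2.07% and 4.49% of the clusters tested passed. Crabp2 stood at percentiles 86.3 and 78.4 on the knockout arrays and at percentiles 46.5 and 44.6 on the wild-type arrays. The filters use the mean over all 4 arrays, so it stayed above the median through its knockout values. The pass under the median filter is thus no separate support for the difference.

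**Figure D3:**
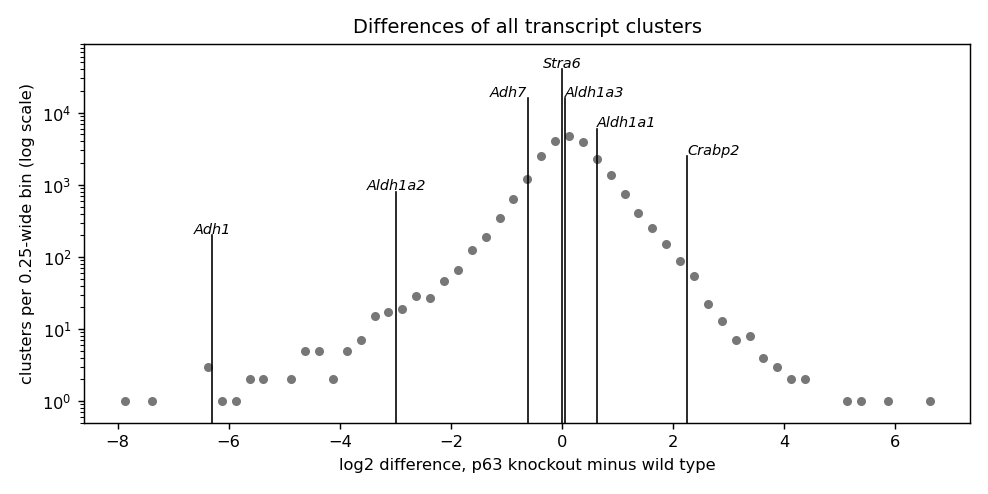
Number of transcript clusters (vertical axis, log scale) by log2 difference, p63 knockout minus wild type (horizontal axis), as grey points for bins of equal width, with lines at the 7 measured retinoid genes. Adh1 at -6.29 lies at the lower edge, Aldh1a2 at -2.99 and Crabp2 at 2.25 lie in the tails, and Adh7, Stra6, Aldh1a3 and Aldh1a1 lie between -0.62 and 0.63 in the bulk of clusters.

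The rest of the pathway was read from a list of 57 further genes, of which 42 had a cluster of their own. Of these 42, 0 passed in either direction in limma, beside 0.527% of all clusters. At an unadjusted p under 0.05, 5 were higher and 7 lower (12 in all), while 22.3% of all clusters passed that mark, 14.6% as higher and 7.7% as lower. Their median difference was -0.0008 (0.12 over all clusters), and 5 of the 42 differed by at least 1 in size, close to the 11.5% of all clusters. Groups did not overlap in 24 of the 42, 13 higher and 11 lower, a share of 57.1% that is the same as over all clusters.

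None of the 5 measured nuclear receptors passed, and their differences were small. Rxrg was at 4.31 and 4.16 in the knockout colonies and at 3.84 and 3.76 in the wild-type colonies, under the guide level throughout (difference 0.43, adjusted p = 0.241; 0.20 after quantile and 0.18 after cyclic loess normalization). Rxra, the abundant epithelial RXR, was at 5.69 and 5.78 in the knockout colonies and at 6.00 and 6.15 in the wild-type colonies (difference -0.34, adjusted p = 0.323). Rarg, the main RAR of squamous epithelia, and Rara, which is made in most tissues, had overlapping groups, with differences of -0.02 (95% interval -0.56 to 0.52) and 0.05 (95% interval -0.46 to 0.56).

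Among 5 measured binding and carrier proteins, Rbp4, the plasma carrier of retinol that STRA6 recognises, was at 4.68 and 4.12 in the knockout colonies and at 6.65 and 5.84 in the wild-type colonies. Both knockout values were below both wild-type values, and the difference of -1.84 (95% interval -2.86 to -0.82) did not pass (adjusted p = 0.116). As for Aldh1a2 and most markers of other cell types, its higher wild-type value was that of array 1, an order not counted over all clusters. Its knockout values lay below the guide level. Rbp7, a cellular retinol binding protein, had overlapping groups (4.17 and 3.59 in the knockout colonies, 3.93 and 4.41 in the wild-type colonies; difference -0.29, and -0.55 after quantile normalization; adjusted p = 0.601). Of 3 measured uptake and storage genes, Dgat1, an acyltransferase that can esterify retinol, differed by -0.30 (adjusted p = 0.342), and Ttr, the plasma partner of the retinol carrier, by -0.09 (adjusted p = 0.796; -0.30 after quantile normalization).

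The 13 measured oxidoreductases of retinol and retinal held both the lowest and the highest difference of the list. Rdh10, the retinol dehydrogenase that mouse embryos need for retinoic acid synthesis, was at 7.97 and 7.28 in the knockout colonies and at 6.19 and 6.18 in the wild-type colonies, higher on both knockout arrays and most so on knockout array 1. Its difference was 1.44 (95% interval 0.67 to 2.21), 2.71-fold, and did not pass (adjusted p = 0.112). Akr1b8, an aldo-keto reductase that acts on aldehydes and retinal, was at 8.09 and 8.58 in the knockout colonies and at 10.09 and 10.44 in the wild-type colonies. Its difference was -1.93 (95% interval -2.64 to -1.22), 3.81-fold, and did not pass (adjusted p = 0.077), but it passed without clusters below the 25th percentile or the median of mean level.

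Neither measured CYP26 gene, whose enzymes break down retinoic acid, passed. Cyp26a1, strongly induced by retinoic acid in many cells, was at 4.95 and 4.12 in the knockout colonies and at 3.00 and 3.43 in the wild-type colonies (difference 1.32, 95% interval 0.35 to 2.29, adjusted p = 0.163). All 4 values lay below the guide level, so the signal was weak in both groups. Cyp26b1 was at 4.94 and 5.12 in the knockout colonies and at 4.91 and 4.84 in the wild-type colonies (adjusted p = 0.62). Its difference was 0.16 (95% interval -0.31 to 0.62), beside a median of 0.12 over all clusters. The carotene cleaving enzymes Bco1 and Bco2 were below the guide level on all arrays, with differences of 0.19 and 0.27 (adjusted p = 0.606 and 0.387), and after quantile normalization that of Bco1 was 0.0099 and that of Bco2 turned sign.

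Of the 7 measured genes induced by retinoic acid, 0 passed in limma. Groups did not overlap for 3 higher and 3 lower genes, beside 36.2% and 20.9% of all clusters. The homeobox genes Meis1 and Meis2 had the largest differences in size. Meis1 was at 6.40 and 6.11 in the knockout colonies and at 7.34 and 7.26 in the wild-type colonies (difference -1.05, 95% interval -1.56 to -0.54, adjusted p = 0.103). Meis2 was at 7.24 and 7.72 in the knockout colonies and at 6.50 and 6.69 in the wild-type colonies (difference 0.88, 95% interval 0.23 to 1.54, adjusted p = 0.163). Of 5 measured cofactors of nuclear receptors, the coactivators Ncoa3 and Ncoa1 differed by -0.58 and -0.51 and did not pass (adjusted p = 0.185 and 0.209).

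**Figure D4:**
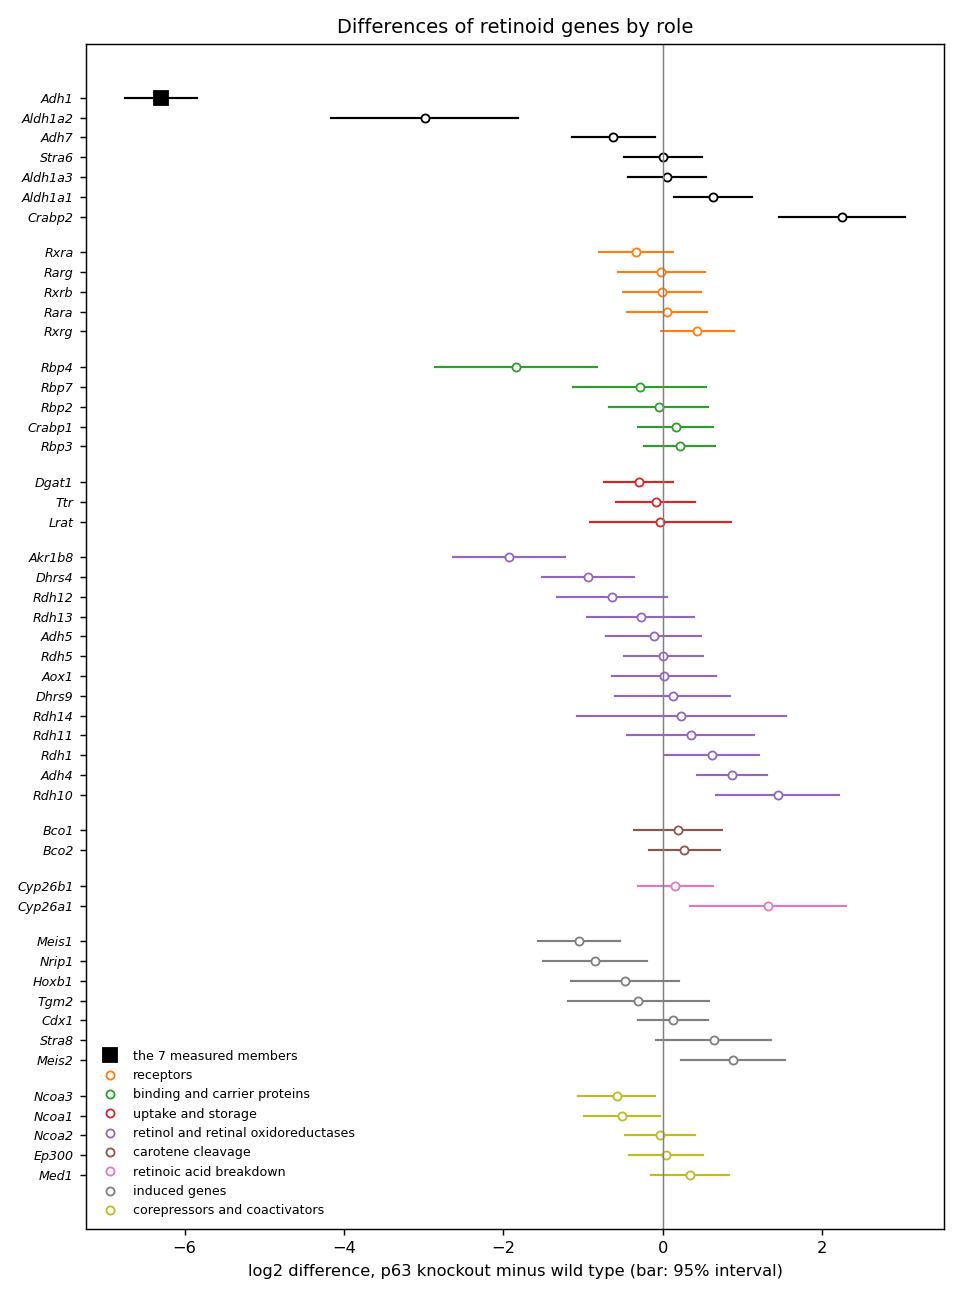
Log2 difference, p63 knockout minus wild type (horizontal axis), with 95% intervals, of the 7 measured members (black) and the 42 other measured pathway genes, coloured by role; the filled square marks the gene that passed the test and open circles those that did not. Adh1 is the single filled symbol, and most other genes lie within 1 log2 unit of 0.

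Knockout array 1 was above knockout array 2 for Crabp2, Rdh10 and Cyp26a1, by 0.70, 0.68 and 0.82 on the log2 scale, and below it for Aldh1a1, by 0.22. The 3 clusters whose pattern over the 4 arrays was most like that of Crabp2 (smallest Euclidean distance between centred log2 values, among clusters with 1 symbol) were Krt20, a keratin of umbrella cells, at a distance of 0.256, Hmgcll1 at 0.283 and the chemokine Ccl5 at 0.324. Krt20 was at 9.64 and 8.72 in the knockout colonies and at 7.04 and 7.13 in the wild-type colonies. For Adh1 they were Upk1a, a uroplakin of the urothelial plaque, at 0.38, the keratin Krt23 at 0.407 and Ctse, the protease cathepsin E, at 0.514. Upk1a was at 5.07 and 5.41 in the knockout colonies and at 11.51 and 11.73 in the wild-type colonies. With 4 arrays in 2 groups, such likeness mainly records the size of the group difference.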

How the data were processed

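The authors deposited 1 table of log2 intensities, a value for each of 23332 transcript clusters on each of 4 arrays (2 p63 knockout, 2 wild type). That the scale is log2 was read from the values, which run from 0.795 to 13.9. Affymetrix Expression Console, Partek and the build mm9 are named, per the submitters' processing notes; no source used here gives their versions, the summarisation or the scaling of arrays. Array medians were 5.08 to 5.13. Lower quartiles were 4.06 and 4.06 on the knockout arrays against 3.80 and 3.82 on the wild-type arrays. Dim clusters thus tended to read higher in the knockout as deposited, which bears on small increases below the guide level. GEO's platform annotation gave 1 symbol to 14996 clusters, several to 1019 and none to 7317; only the first were named.

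The comparison used limma 3.58.1 under R 4.3.3 (functions lmFit and eBayes, two-sided, no covariates, no filter), with Benjamini-Hochberg adjustment over all clusters and a threshold of 0.05. The fit had 2 residual and 2.2 prior degrees of freedom. It was tested on simulated data with variances drawn from its own fitted prior, which cannot show how well that prior describes these arrays. An exact permutation test of 2 against 2 arrays cannot go below p = 0.333, so none is given. The number of arrays limits the precision. Values are log2 units, and folds are back-transformed differences.

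The members and lists were chosen with earlier results of these data known. Named genes were the 9 members, Trp63 and the 2 largest differences in each role of the further list. Also named were the 3 nearest patterns of each called member and of the largest increase, and up to 4 abundant markers per cell type. Rarg, Rara, Adh4, Adh5, Aldh1a7, Lum, Postn, Krt5, Krt14, Elf3, Tek and Kdr were named after their values were seen. Promoter windows are RefSeq's (GRCm38.p6), and gene order is from the RefSeq table of that assembly; no coordinate of an array cluster is given. Alternatives were other normalizations, centring, filters on dim clusters, other priors, the replicate number as a block, and leaving out each array. Same-numbered arrays of the 2 groups did not deviate together (correlation 0.0188 over clusters), so the numbers were not taken to pair samples.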

Additional observations from a re-analysis of the deposited data

How the results depend on the processing

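The number of clusters passing was 123, and 303 with an intensity trend in the prior, 362 when clusters under the 25th percentile of mean level were left out, 524 without those below the median, 0 with the replicate number as a block (4525 at an unadjusted p under 0.05) and 0 whichever array was left out (2124 to 6570 at an unadjusted p under 0.05). Of the measured members, 1 passed in the fit as reported, 2 without clusters below the 25th percentile (Adh1, Crabp2), 3 without those below the median (Adh1, Aldh1a2, Crabp2), 0 with the replicate block (Adh1 adjusted p = 0.118) and 0 with any 1 array left out. Of the 42 other pathway genes 0 passed, and 1 (Akr1b8) without clusters below the 25th percentile and 1 without those below the median. These filters leave 17499 and 11666 clusters tested, and they use the mean over both groups. In the group where they are low, Adh1, Aldh1a2 and Crabp2 lay below the median of each array. Their passes under the median filter are therefore no separate support. Leaving out an array leaves 1 array in a group, assumed to vary like the other group. Adh1 kept its direction in all 12 alternatives (-6.38 to -6.23), as did Aldh1a2 (-3.57 to -2.41) and Crabp2 (1.90 to 2.60), with adjusted p of 0.00214 to 0.337, 0.0348 to 0.424 and 0.0277 to 0.471.

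Signs turned for Aldh1a3 after quantile normalization (-0.081) and cyclic loess (-0.074), for Stra6 after quantile normalization (-0.035), cyclic loess (-0.014) and centring on medians (-0.036), and for Bco2 after quantile normalization (-0.092) and cyclic loess (-0.099). The same normalizations moved Rxrg to 0.20 and 0.18, Bco1 to 0.0099 and 0.0067, Ttr to -0.30 and -0.32 and Rbp7 to -0.55 and -0.55, and quantile normalization moved Cyp26b1 to 0.091. With 1 array left out, Aldh1a3 ran from -0.062 to 0.17, Stra6 from -0.12 to 0.13, Rbp7 from -0.58 to 0.0001 and Ttr from -0.19 to 0.0057. The median of all clusters was 0.12 as deposited and 0.0029 after quantile normalization. The mean over several clusters of a gene changed nothing, since each listed gene had 1. Signal near the level of silent genes limits what can be read for Aldh1a2, Adh1 and Rbp4 in the knockout, for Crabp2 in the wild type, and for Aldh1a3, Adh7, Stra6, Rxrg, Adh4, Cyp26a1, Cyp26b1, Rbp7, Ttr, Bco1 and Bco2 in both groups.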
